A study of Mus musculus with 12 samples.

Results

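The regions described here are 10470 sites of histone H3 lysine 27 acetylation (H3K27ac) in a mouse melanoma cell line that is wild type (WT) for Kmt2d. They were chosen from the peak lists themselves, by 3 distance limits of 1 kb: each H3K27ac peak of the WT line lay over 1 kb from every gene end, had no H3K27ac peak of the Kmt2d mutant line within 1 kb and had no H3K4me1 peak of the WT line within 1 kb. The members are 57% of the 18369 distal H3K27ac peaks of the WT line and 39.6% of all its 26415 H3K27ac peaks. Of the 13876 distal WT peaks with no mutant H3K27ac peak within 1 kb, they are 75.5%. The rest of the distal WT peaks form 3 classes, used here for comparison: 3406 WT-only peaks with H3K4me1, 3053 peaks shared with the mutant line without H3K4me1 and 1440 shared peaks with H3K4me1. Gene ends were those of protein-coding and lncRNA genes, and 206 members lay within 1 kb of an end of some other kind of RefSeq gene, such as a small RNA gene or a pseudogene.

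The 2 lines are Kmt2d WT 971 and Kmt2d mutant 493, both melanoma cells grown in DMEM/F12 with serum. In each line chromatin immunoprecipitation with sequencing (ChIP-seq) was run with Abcam antibodies for H3K27ac, H3K4me1, H3K4me3 and H3K27me3, as 1 library per line and mark, and 4 input libraries were made, which are not analysed here. The labels give no kind or origin of the mutation, no tumour or mouse of origin and no clone, so a difference between the lines is a difference between 2 cultures, in which Kmt2d genotype and every other difference between the lines cannot be told apart. There are no replicates, and every interval below covers counting error alone. The intervals of shares and differences also treat each peak as independent. Members often lay close together, with 3501 of the 10470 in the groups of 2 or more described below. Several members can share an H3K4me3 peak, so these intervals may be too narrow even for counting error.

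Acetylation of lysine 27 marks active promoters and enhancers, and methylation of the same residue by Polycomb marks silenced ones. Enhancers usually carry H3K4me1, which KMT2D (MLL4) and its relative KMT2C place there in a complex with the H3K27 demethylase KDM6A. Promoters carry H3K4me3, placed mainly by other members of the family. KMT2D also acts together with the acetyltransferases EP300 and CREBBP, which place H3K27ac.

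Where a member overlapped a listed window around a start of transcription inside a gene, its sequence in that window can be shown. Such a member need not cover the start itself. RefSeq lists starts as windows of 300 bases (250 before and 50 after the start, GRCm38.p6), and members overlapped 85 such windows of 74 genes, all over 1 kb from a gene end. Of the 48 protein-coding windows with at least 50 bases under a member, 43 carried H3K4me3 in both lines and 5 carried it in neither. The windows below are 2 of each kind, 5′ to 3′ on the strand of the gene, with the bases under the member in capitals.
Pkd2, chr5:104459207-104459506, plus strand, H3K4me3 in both lines: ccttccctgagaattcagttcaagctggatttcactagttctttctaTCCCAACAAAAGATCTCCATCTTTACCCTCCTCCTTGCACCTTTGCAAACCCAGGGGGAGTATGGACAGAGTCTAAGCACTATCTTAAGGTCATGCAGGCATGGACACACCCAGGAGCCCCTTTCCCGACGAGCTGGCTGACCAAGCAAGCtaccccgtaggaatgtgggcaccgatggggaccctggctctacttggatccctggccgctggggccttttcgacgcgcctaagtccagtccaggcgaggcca
Capg, chr6:72549397-72549696, plus strand, H3K4me3 in both lines: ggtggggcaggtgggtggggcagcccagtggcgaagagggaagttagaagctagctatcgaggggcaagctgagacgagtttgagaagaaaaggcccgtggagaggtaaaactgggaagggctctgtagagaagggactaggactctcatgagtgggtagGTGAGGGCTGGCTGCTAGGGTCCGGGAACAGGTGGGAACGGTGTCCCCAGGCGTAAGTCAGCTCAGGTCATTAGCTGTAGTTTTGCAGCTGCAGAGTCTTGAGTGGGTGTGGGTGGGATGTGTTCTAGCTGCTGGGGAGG
Dgcr6, chr16:18066153-18066452, plus strand, H3K4me3 in neither line: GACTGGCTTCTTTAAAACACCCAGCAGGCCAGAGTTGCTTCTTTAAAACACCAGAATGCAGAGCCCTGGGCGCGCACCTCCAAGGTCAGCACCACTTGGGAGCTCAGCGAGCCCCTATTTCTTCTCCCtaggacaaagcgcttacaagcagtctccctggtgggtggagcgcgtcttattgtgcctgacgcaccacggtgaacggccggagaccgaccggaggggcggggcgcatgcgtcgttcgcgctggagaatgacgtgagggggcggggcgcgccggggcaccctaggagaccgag
Gcnt1, chr19:17339456-17339755, minus strand, H3K4me3 in neither line: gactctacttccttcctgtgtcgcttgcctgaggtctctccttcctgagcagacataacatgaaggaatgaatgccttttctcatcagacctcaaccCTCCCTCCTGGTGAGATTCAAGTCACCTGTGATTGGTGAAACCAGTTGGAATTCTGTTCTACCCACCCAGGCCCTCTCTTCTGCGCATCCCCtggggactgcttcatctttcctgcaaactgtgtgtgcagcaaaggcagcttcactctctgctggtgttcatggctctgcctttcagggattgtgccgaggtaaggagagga

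Pkd2 encodes a polycystin cation channel of the primary cilium. Its window held 9 CpG dinucleotides, and the member over it had 9.96-fold enrichment over input and 15 fragments at its summit. H3K4me3 over it spanned 3.92 kb in the WT list against 3.75 kb in that of the mutant, whose nearest H3K27ac peak was 6.04 kb away. Capg encodes an actin filament capping protein. The member there reached 18 fragments with 6.19-fold enrichment, and H3K4me3 spanned 5.20 kb (WT) and 5.25 kb (mutant). Dgcr6 lies in the region of the mouse genome that matches the human DiGeorge region, and Gcnt1 encodes an enzyme that branches O-glycans. Their members had 9 and 7 summit fragments. The Dgcr6 window held 24 CpG and the Gcnt1 window 3, so windows without H3K4me3 included CpG-rich and CpG-poor sequence.

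Over all 85 windows under a member the median was 20 CpG and 62% GC, against 5 CpG and 51.3% GC in the 4486 listed windows over 1 kb from a gene end. Among these, the 1530 windows with WT H3K4me3 had a median of 18 CpG. Most windows under a member, 83.5%, carried WT H3K4me3, and 82.4% carried mutant H3K4me3, against 34.1% and 33.0% of all internal windows. The letters GGGCGG, on either strand, stood in 56.5% of the windows under a member, in 58.8% of internal windows with WT H3K4me3 and in 28.9% of all internal windows. CCAAT stood in 31.8%, 32.9% and 36.0%, TATAAA in 5.88%, 6.86% and 12.9%, and the AP-1 letters TGANTCA in 8.24%, 6.99% and 8.29% of the same sets. TGACGTCA stood in 4.71%, 2.09% and 1.25%, and AAGATGGC in 1.18%, 2.68% and 1.94%, from 4 and 1 windows under a member. Only 0.821% of all members (86) lay over a listed window, against 0.964% of all distal WT peaks. These windows and letters were chosen after other values of the members had been seen.

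Kmt2d itself had 3 members within 50 kb. The member inside the gene (chr15:98871524-98871903; gene at 98831669 to 98874077) had 15 summit fragments and 8.09-fold enrichment. Both lines had H3K4me3 over it, and the nearest mutant H3K27ac peak was 8.76 kb away. The others lay in Dhh, which encodes the Hedgehog ligand desert hedgehog, with 16 fragments each, 7.59-fold and 7.41-fold enrichment and H3K4me3 in both lines. Their nearest mutant H3K27ac peaks were 2.05 kb and 1.23 kb away, so close to the limit of 1 kb. The mutant line had 3 H3K27ac peaks within 50 kb of Kmt2d. None of these peaks tests the genotype given in the labels, since a peak list holds no sequence change. As a check of the melanoma label, the melanocyte genes Mitf, Sox10, Pax3, Tyr, Tyrp1, Dct, Pmel and Mlana were examined. Of these 8 genes, 5 had a WT H3K27ac peak within 50 kb and 7 a mutant one, and Mitf, Sox10, Pax3 and Mlana had a member. Of all protein-coding genes, 43.8% had a member and 63.3% a mutant H3K27ac peak within 50 kb. Within 1 kb of the gene, WT H3K4me3 lay at 4 of the 8 and mutant H3K4me3 at 5. WT H3K27me3 lay at Sox10 and Tyr. Around Tyr, the rate-limiting enzyme of melanin synthesis, neither line had an H3K27ac peak. For WT H3K27ac, H3K4me3 and H3K27me3 no share of all protein-coding genes is given, so these counts do not settle the label.

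Most members were weak peaks. The number of sequenced fragments piled up at each summit was recovered from the fold and the p value that the authors deposited, and both values fitted a whole number in every peak of both H3K27ac lists (within 0.001 on the −log10 p scale). Members had a median of 7 summit fragments (10th to 90th percentile, 5 to 10), a median fold of 5.05 and a median width of 104 bp. A count of 7 has an exact 95% Poisson interval of 2.81 to 14.4. The strongest member had 24 fragments and the weakest 4, and 36.7% of members had the smallest width in the list, 88 bp. WT-only peaks with H3K4me1 and shared peaks without it had a median of 8 fragments each, and shared peaks with H3K4me1 had 10. The sequencing depth is unknown.

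**Figure D1:**
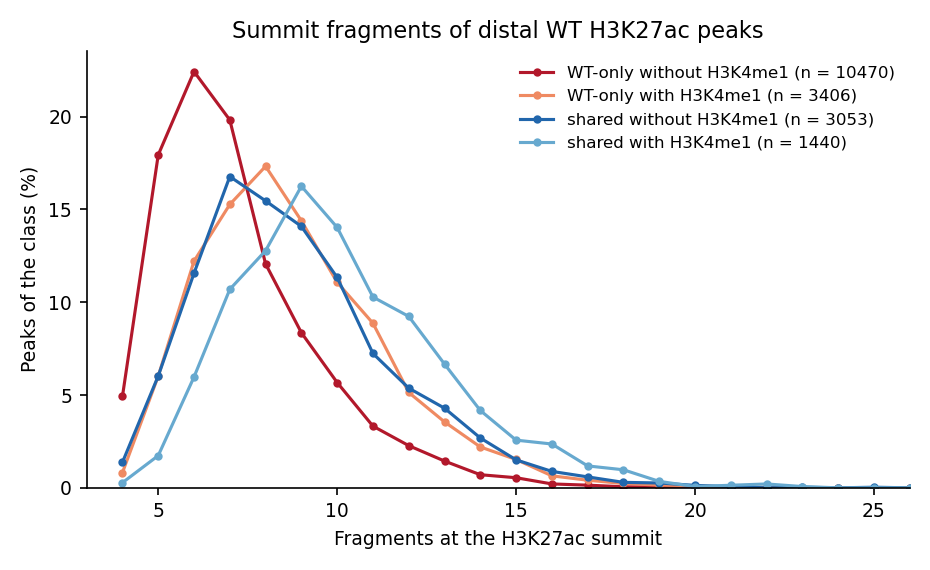
Share of peaks (percent of the class, vertical axis) by number of fragments at the H3K27ac summit (horizontal axis) for members (red) and the other 3 classes of distal WT peaks. The members' curve lies to the left, with a median of 7 fragments against 8, 8 and 10.

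Strength and membership moved together, so strength is part of what the rule selected. Of the distal WT peaks with 6 fragments or fewer, 77.9% (4742 of 6085) were members and 11.4% had a mutant peak within 1 kb. Of those with 11 or more, 31.1% (921 of 2966) were members and 42.7% had a mutant peak. A count of 4, the lowest in either list, has an interval of 1.09 to 10.2, which includes the members' median. At such counts a member's absence from the mutant list does not show that the mutant line lacked the mark.

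The distances that the rule used are given as a description. The median distance was 22.5 kb to the nearest mutant H3K27ac peak, 35.3 kb to the nearest WT H3K4me1 peak and 13.9 kb to the nearest gene end. Of all members, 8.11% had a mutant H3K27ac peak within 2 kb, and 42.4% had no WT H3K4me1 peak within 50 kb. Few peaks lay at the limits: 135 members lay from 1 to 1.1 kb from a mutant H3K27ac peak, and 134 distal WT peaks from 0.9 to 1 kb. The nearest members inside that limit, at 1001 and 1002 bp, had 7 and 10 summit fragments, and the nearest peaks outside it, at 1000 and 998 bp, had 8 and 11. At the H3K4me1 limit 108 members lay in the 100 bp inside and 116 peaks in the 100 bp outside. The nearest inside it, at 1001 and 1003 bp, had 12 and 9 fragments, and those outside, both at 1000 bp, had 8 and 6. At the gene-end limit the counts were 166 and 193, and the nearest peaks had 12 and 7 fragments inside and 11 and 4 outside.

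H3K4me3, which the rule did not use, lay over 18.6% of members (1944; interval 17.8% to 19.3%), against 23.4% of all distal WT peaks. WT-only peaks with H3K4me1 had 19.5%, and the difference of members from them was −0.90 percentage points (−2.45 to 0.60). Within 1 kb the shares were 23.1% and 31.2%. Shared peaks without H3K4me1 stood well above, at 44.9%, a difference of −26.3 points (−28.3 to −24.4). The share in members rose with the strength of the H3K27ac peak: over 5 equal groups of distal peaks by −log10 p it was 13.5%, 16.4%, 16.8%, 20.2% and 30.4%. In the strongest group it was 8.72 points (4.87 to 12.4) above WT-only peaks with H3K4me1, and in the weakest group the difference was −5.04 points (−8.55 to −1.84). Shared peaks without H3K4me1 ranged from 38.6% to 51.0% and stood above members in every group.

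**Figure D2:**
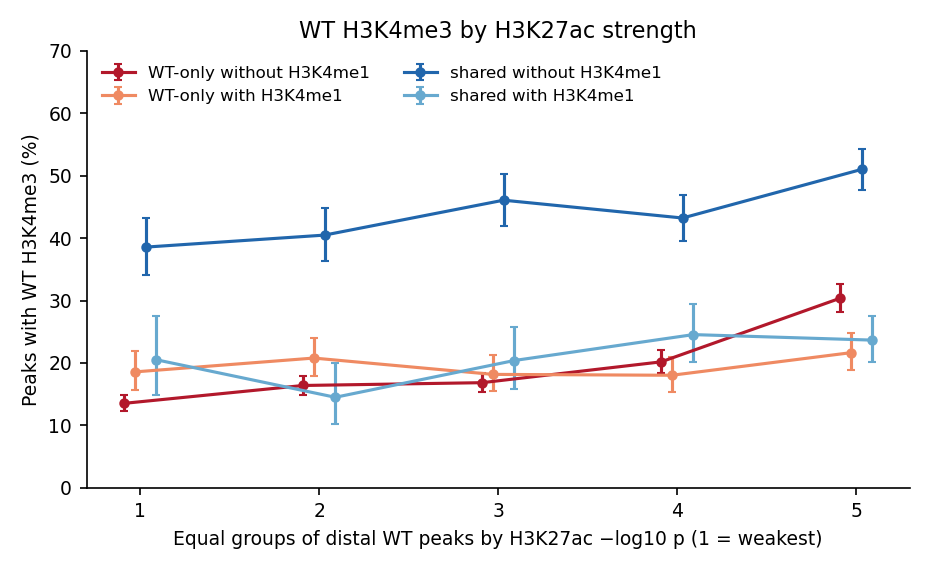
Share of distal WT H3K27ac peaks that overlap WT H3K4me3 (percent, with Wilson 95% intervals) in 5 equal groups by H3K27ac −log10 p, from weakest to strongest, for the 4 classes. Members (red) go from 13.5% to 30.4%, while shared peaks without H3K4me1 lie above them in all 5 groups.

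The H3K4me3 over members was mostly called in the mutant line as well, although H3K27ac was not. Of the 1944 members with WT H3K4me3, 73.0% (1420; 71.0% to 75%) had mutant H3K4me3 too, against 68.5% of all distal WT peaks with H3K4me3. In WT-only peaks with H3K4me1 the share was 33.6%, and the members lay 39.4 points (35.2 to 43.4) above it. In shared peaks it was 85.3% without H3K4me1 and 40.4% with it. Among members, 13.6% had H3K4me3 in both lines, 5.0% (524) in the WT line alone, 0.478% (50) in the mutant line alone and 81.0% (8476) in neither. In all, 14.0% of members had mutant H3K4me3, against 16.5% of all distal WT peaks. The mutant H3K4me3 list held 17987 peaks and the WT list 23154.

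**Figure D3:**
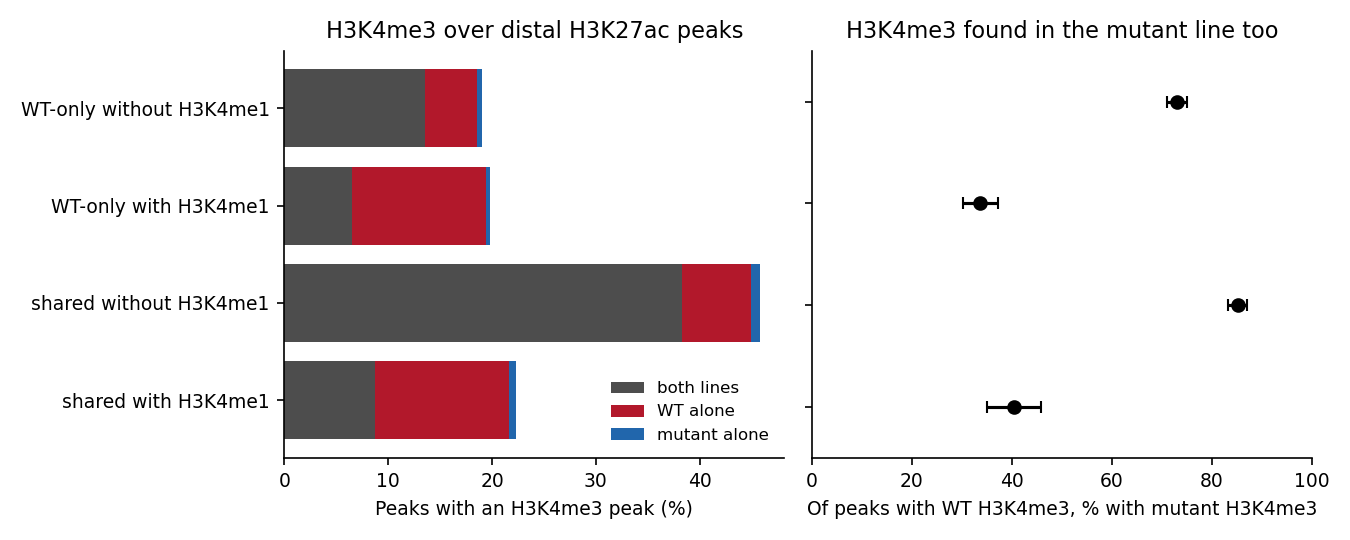
Left, percent of each class of distal WT H3K27ac peaks with H3K4me3 in both lines (grey), the WT line alone (red) and the mutant line alone (blue). Right, percent of peaks with WT H3K4me3 that also had mutant H3K4me3, with Wilson 95% intervals. It is 73.0% in members and 33.6% in WT-only peaks with H3K4me1. In shared peaks it is 85.3% without H3K4me1 and 40.4% with it.

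The H3K4me3 peaks that members lay in had a median score of 1897 (the authors' score, −10 times log10 p), against 297 under WT-only peaks with H3K4me1 and 2451 under shared peaks without it. Where mutant H3K4me3 also lay over the member, the WT peak was broad, with medians of 2.97 kb in width and 2847 in score. Where no mutant H3K4me3 lay over the member, the medians were 1.23 kb and 221. Some of these WT peaks had mutant H3K4me3 beside the member. In these medians a peak that holds several members counts once for each. At an H3K4me3 score of 50 to 200, 26% of members with WT H3K4me3 also had it in the mutant, at 200 to 1000 it was 62.4%, and at 1000 and above 90.6%. WT-only peaks with H3K4me1 had 8.43%, 36.2% and 68.8% in the same bands, which are wide, so scores within a band were not matched between classes. Shared peaks without H3K4me1 had 25%, 78.0% and 97.7%.

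Some of this H3K4me3 overlapped or came within 1 kb of a gene end, which may be a start or a 3′ end. For 747 members (38.4% of those with WT H3K4me3) this was so, with a median width of 3.92 kb, and 88.9% of these had mutant H3K4me3. For 1197 members it lay over 1 kb from every gene end, and 63.2% had mutant H3K4me3. For 985 members the H3K4me3 peak lay over 1 kb from every gene end and no listed start lay within 1 kb of the member. Of these, 56.4% had mutant H3K4me3, against 24.5% of such peaks among WT-only peaks with H3K4me1 and 70.4% among shared peaks without it. A listed start lay within 1 kb of 5.12% of members (536), against 5.97% of all distal WT peaks and 15.0% of shared peaks without H3K4me1.

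The strongest members, ranked by the authors' p value, lay near genes of varied function. That near Prl2c3 (chr13:12802569-12802714), a prolactin-related hormone gene, had 16.8-fold enrichment and 24 fragments with no H3K4me3 nearby. It belongs to a family of near-identical genes, so its position is uncertain. The member 18.4 kb from Adnp2 had 12.0-fold enrichment, 19 fragments and H3K4me3 in both lines. Inside Nkain2, a gene for a partner of the sodium pump, a member with 16 fragments had its nearest mutant H3K27ac peak 1093 kb away.

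Pkd2, shown above, came next among the members described here. The member inside the Ugt1a genes, which encode detoxifying glucuronosyltransferases and overlap each other, had 18 fragments and no H3K4me3. Creg2 held 1 with 17 fragments, without H3K4me3. Mdfic held 1 with 15 fragments and H3K4me3 in both lines, 1.48 kb from a mutant H3K27ac peak and 1.13 kb from a WT H3K4me1 peak, so close to both limits. The member 7.91 kb from Cdkn2aip, which encodes a protein that binds the ARF tumour suppressor, had 13 fragments and H3K4me3 in the WT line alone. The member 35.6 kb from Rtn4, the gene of the myelin protein Nogo, had 16 fragments and no H3K4me3.

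Members with H3K4me3 in 1 line alone were looked up after their values had been seen. Inside Zbtb20, a transcriptional repressor gene of liver and brain development, a member with 15 fragments and 9.11-fold enrichment lay in a WT H3K4me3 peak of 9.10 kb with a score of 3100, which recurs among the strongest peaks. The nearest mutant H3K4me3 was 0.339 kb from the member. Members in Tnfaip8 (18 fragments) and Dpysl2 (17 fragments), which encode a regulator of cell death and a regulator of microtubules in neurons, also had WT H3K4me3 without mutant H3K4me3, the nearest being 0.296 kb and 18.8 kb away. The strongest members with mutant H3K4me3 alone lay near Gm45095, Rgs5, Lrp1 and Pde1b, with 13, 8, 13 and 11 fragments. That near Lrp1, a lipoprotein receptor gene, lay in a mutant H3K4me3 peak of 8.63 kb and 0.047 kb from a WT one.

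H3K27me3 lay over 10 members in the WT line (0.0955%), against 0.0599% of all distal WT peaks. The other 3 classes together held 1 such peak, and the interval of the difference from each included 0. Within 1 kb of H3K27me3 the share of members was 0.401% (42; 0.297% to 0.542%), against 0.256% (47) of all distal WT peaks. It was 0.164% (5) in shared peaks without H3K4me1. WT-only peaks with H3K4me1 had 0 of 3406, which allows up to 0.113%, and shared peaks with it 0 of 1440, which allows up to 0.266%. The 10 members under H3K27me3 are all named here, which goes beyond the rule for named genes. At Sox10, the transcription factor that specifies the neural crest lineage of melanocytes, a member of 5 fragments (chr15:79158485-79158572) lay inside the gene under a WT H3K27me3 peak of 5.98 kb. The mutant line had H3K4me3 of 6.66 kb with a score of 2876 there, and the nearest WT H3K4me3 was 15.7 kb away. The nearest mutant H3K27ac peak was 21.2 kb away.

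The other members with WT H3K27me3 included developmental genes. A member of 5 fragments lay 7.58 kb from Evx1, a homeobox gene beside the HoxA cluster, with WT H3K4me3 of 1.12 kb and the nearest mutant H3K4me3 83.7 kb away. Another of 5 fragments lay 8.34 kb from Meis1, a homeobox cofactor of Hox proteins, with no H3K4me3 in either line. In Pdgfb, a growth factor gene, the member had 8 fragments, and lay under WT H3K4me3 of 3.8 kb with a score of 3100 and mutant H3K4me3 of 2.68 kb with a score of 626. Members in Enox1 (9 fragments) and Nol4l (7 fragments) had H3K4me3 in both lines. Those in Fam78a, Cnnm1 and Exoc6 and that 113 kb from Sptssa had no H3K4me3 in either line, with 5 to 7 fragments. The mutant H3K27me3 list was called with the WT library as its control, per its file name, so it holds regions where the mutant stood higher. Of all 18369 distal WT peaks, members included, 0 overlapped such a region, and within 1 kb there were 14 members (0.134%) against 17 of all distal WT peaks (0.0925%).

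Mutant H3K4me1 lay over 85 members (0.812%; 0.657% to 1.00%), against 2.46% of all distal WT peaks. It was 1.67% in members with 8 or more fragments, and within 1 kb it was 2.55%, against 6.95% of all distal WT peaks. All distal WT peaks include the classes with WT H3K4me1, whereas members were chosen for lacking it. The mutant H3K4me1 list was also short, with 3649 peaks against 17373 in the WT list. Mutant H3K4me1 lay over 5.02% of WT-only peaks with WT H3K4me1, 8.96% of shared peaks with it and 2.16% of shared peaks without it. The first pair of classes was chosen for H3K4me1 in the WT line, so those values are set side by side only. Against shared peaks without H3K4me1 the difference was −1.35 points (−1.95 to −0.85), and in the weakest and the strongest of the 5 groups by strength its interval included 0. The strongest of the 85 lay 30.8 kb from Lrrc74a with 18 fragments, 2.70 kb from WT H3K4me1, and had H3K4me3 in both lines. The member in Ascc2, a subunit of a complex that resolves stalled ribosomes, had 12 fragments and H3K4me3 in both lines. Those in Tdp1, a gene of DNA repair, and Ktn1, a kinesin receptor gene, had 11 fragments each and H3K4me3 in the WT line alone, with mutant H3K4me3 0.045 kb and 3.45 kb away.

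Of all members 64.2% (6717) lay inside a gene body, against 65% of all distal WT peaks. WT-only peaks with H3K4me1 had 68.3%, a difference of members from them of −4.11 points (−5.90 to −2.28), and the intervals of the other differences included 0. Joined across gaps up to the limit customary in calling super-enhancers (the widest gap joined was 12.48 kb), members formed 8515 groups, of which 6969 were single peaks. The other 1546 groups held 3501 members. The largest, of 7 members over 27.2 kb, lay in Rapgef2, an activator of the small GTPase RAP1, and 4 of its members had WT H3K4me3. Groups of 6 lay 7.74 kb from Slc16a11, a monocarboxylate transporter gene, 54.6 kb from Tfap2a, a transcription factor gene of the neural crest and of melanocytes, 26.3 kb from Slc40a1, the iron exporter ferroportin, and over Prl2c2 and Gm3776. That near Tfap2a had 2 members with H3K4me3, and the other 4 groups of 6 had none. Prl2c2 has near-identical copies, so its group is uncertain.

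The genes with the most members inside were long. Tenm3, an adhesion gene of 1297 kb, held 21, Macrod2 held 15 in 1998 kb and Foxp1, a forkhead repressor gene, held 14 in 597 kb. Syne1, which encodes a nuclear envelope linker, held 13 and Stard13, a regulator of RHOA, held 12. Arhgap24, Arid5b and Kcnab1 followed with 11 each, and were named after their values were seen. They had 1.58, 5.89 and 2.56 members per 100 kb, against 0.577 over all protein-coding genes together. Tenm3 had 1.62 and Macrod2 0.751 members per 100 kb.

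Genes around members were counted within 50 kb of each gene body. At least 1 member lay there for 9581 of 21887 protein-coding genes (43.8%), and inside for 16.2%. Nearness does not show that a member acts on the gene. The gene lists below were chosen with earlier results of these lines known and are described without a test. The genes named in each list are those with the most members, so their own counts do not stand for the list. Members were 55.0% of all distal WT peaks counted around protein-coding genes, and 30.0% to 66.7% in the lists. The median number of distal WT peaks of every class per gene was 2, 4.5, 3 and 3 in the cell cycle, MAPK, AP-1 and undifferentiated lists, against 1 over all protein-coding genes.

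Cell cycle genes and tumour suppressors had a member at 16 of 19 genes, and members were 66.1% of their distal WT peaks (37 of 56). Rb1, the retinoblastoma suppressor, had 7 of its 8 distal WT peaks as members, and Cdk6, a kinase that inactivates it, 6 of 9. The MAPK feedback and target genes had a member at 15 of 18, but members were 47.2% of their distal peaks (34 of 72). Dusp4, a phosphatase that dephosphorylates ERK, had 6 of 6, and the nearest, inside the gene, had 15 fragments and H3K4me3 in both lines. The ETS factor genes Etv4 and Etv5, both targets of ERK signalling, had 5 of 6 and 3 of 3. Etv4 had no mutant H3K27ac peak within 50 kb.

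AP-1, TEAD and SMAD factors had a member at 17 of 21 genes, and members were 53.8% of their distal peaks (42 of 78). Wwtr1, the Hippo pathway coactivator TAZ, had 8 of 17 distal peaks as members, Tead4 had 5 of 6 and Tead1 4 of 6. The undifferentiated and neural crest list had a member at 22 of 28 genes, and members were 52.7% of their distal peaks (59 of 112). Runx2, a transcription factor of bone that is also expressed in melanoma, had 11 of 14, all but 1 of the 11 inside the gene, and Zeb1, a repressor of E-cadherin, had 6 of 7 with 9 mutant H3K27ac peaks in the same window. Melanocyte genes had a member at 10 of 25, and members were 48.1% of their distal peaks (25 of 52). Myo5a, the motor that carries melanosomes, had 8 of 11, Mc1r, the melanocortin receptor, 4 of 5 and Pax3, a regulator of Mitf, 3 of 7.

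Glycolysis genes had a member at 15 of 21 (members 51.7% of distal peaks), led by Hk1 (4 of 8 distal peaks), Slc2a3 (3 of 6) and Aldoa (3 of 3). The member nearest to Aldoa had 12 fragments, 7.63-fold enrichment and H3K4me3 in both lines. IGF and insulin signalling genes had a member at 16 of 25 (members 49.3% of distal peaks), among them the PI3K regulatory subunit gene Pik3r1 and the RNA-binding protein gene Igf2bp2, each with 4. Enzymes of H3K4 and H3K27 had a member at 17 of 27 (members 52.7% of distal peaks). Kdm6b, an H3K27 demethylase, had 3 of 6, the nearest with 15 fragments and H3K4me3 in both lines, and the deacetylase gene Hdac3 had 3 of 4. Housekeeping genes, given as a yardstick, had a member at 12 of 20 (members 47.6% of distal peaks). Developmental regulators had one at 13 of 32 (members 60.0% of distal peaks), among them Gli3, Tbx3 and Tbx2 with 3 each, and the nearest members to both T-box genes had H3K4me3 in both lines.

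**Figure D4:**
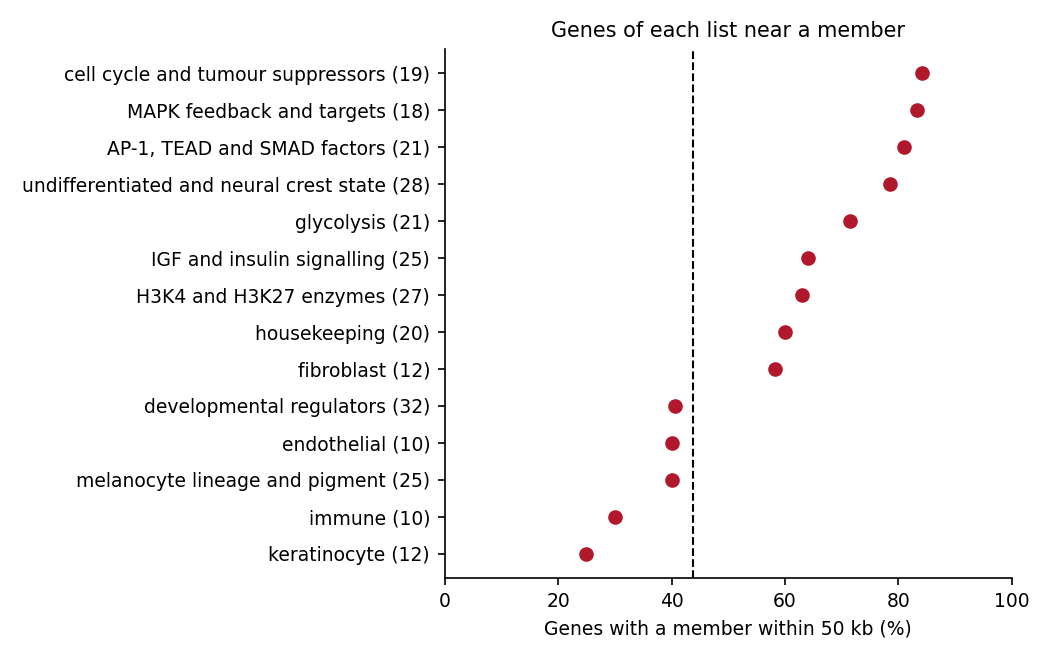
Percent of the genes of each list (number of genes in brackets) with at least 1 member within 50 kb; the dashed line is the share of all protein-coding genes, 43.8%. Cell cycle, MAPK, AP-1 and undifferentiated lists lie above 75%, and melanocyte, endothelial, immune, keratinocyte and developmental lists lie below the line.

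Markers of other cell types gave 7 of 12 genes with a member for fibroblasts, 4 of 10 for endothelium, 3 of 10 for immune cells and 3 of 12 for keratinocytes. Of all protein-coding genes, 43.8% had one. In the same order, members were 44%, 52.6%, 30.0% and 66.7% of the lists' distal WT peaks, against 55.0% over all protein-coding genes. Pdgfra, a PDGF receptor gene of fibroblasts, had 2 members and no mutant H3K27ac peak within 50 kb, and the nearest member had 9 fragments and H3K4me3 in both lines. Eng, the endothelial coreceptor endoglin, had 5 members of 7 distal peaks, and Cdh1, which encodes the epithelial E-cadherin, 5 of 6. The whole endothelial list had 10 members, and the keratinocyte list, which includes Cdh1, had 8. The immune genes Cd68 and Spi1 had 1 member each, outside the gene.

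A class of the same make in the mutant list, distal mutant H3K27ac peaks with no WT H3K27ac and no mutant H3K4me1 peak within 1 kb, numbered 8971, or 65.5% of 13695 distal mutant peaks. The mutant H3K27ac list held 18751 peaks and the WT list 26415, so the values are given side by side. The mutant class had a median of 6 summit fragments and 5.0-fold enrichment, against 7 and 5.05 in members. Mutant H3K4me3 lay over 10.7% of it, and 89.8% of those peaks also had WT H3K4me3. WT H3K4me3 lay over 13.2% of it. Among members the mutant line's H3K4me3 lay over 14.0%, below the 18.6% of their own line. H3K4me1 of the other line lay over 5.24% of the mutant class, against 0.812% of members. WT H3K27me3 lay over 15 of its peaks (0.167%), against 0.0955% of members. The WT lists of H3K4me3 and H3K4me1 are the longer ones, and the part of list length was not tested. Of the genes with a member within 50 kb, 52.0% also had a peak of the mutant class there. Of all 21887 protein-coding genes, 7963 had such a peak. Of the genes with such a peak, 62.6% had a member, against 43.8% of all protein-coding genes. Some mutant H3K27ac peak lay within 50 kb of 83.4% of the genes with a member, against 63.3% of all protein-coding genes. Most genes around a member thus had H3K27ac in the mutant line at another position.

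MicroRNA genes are not among the gene models that the rule used, and 21 members lay within 1 kb of 18 of the 1005 hairpins listed by RefSeq. They were looked up after other values had been seen. No count over all distal WT peaks is given, so members are not shown to lie near hairpins more often than other distal peaks. A member overlapped the hairpin of Mir125b-1, Mir760 and Mir7231. The mature sequences of the first pair, which had H3K4me3 in both lines, follow 5′ to 3′ with the seed (bases 2 to 8) in capitals, and no seed among them is shared.
mmu-miR-125b-5p: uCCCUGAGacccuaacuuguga
mmu-miR-125b-1-3p: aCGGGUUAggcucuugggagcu
mmu-miR-760-3p: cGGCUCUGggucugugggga
mmu-miR-760-5p: cCCCUCAGgccaccagagcccgg

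The member at Mir125b-1 (chr9:41581839-41581935) had 19 summit fragments and 5.67-fold enrichment. It ended 5′ of the mature sequences, whose first base is at 41581940, and a neighbouring member of 15 fragments lay 0.326 kb from the hairpin. The nearest mutant H3K27ac peak was 1.73 kb away from the first and 1.40 kb from the second. miR-125b is known for roles in blood cell and neural differentiation. Mir760 had 2 members, of 9 and 8 fragments, with the nearest mutant H3K27ac peak 11.2 kb from the first. The Mir7231 member, inside Foxj2, had 5 fragments and no H3K4me3. Members lay near the tumour suppressor miRNA gene Mir193a as well (0.224 kb, 11 fragments, H3K4me3 in both lines).

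Across chromosomes the members' share of distal WT peaks was 48.6% on chromosome 19 and 62.8% on chromosome 5, the lowest and highest of the autosomes. On chromosome 19 the mutant list held 116 H3K27ac peaks and 44.6 H3K4me1 peaks per 100 in the WT list, against autosome medians of 69.5 and 19.3. On chromosome 10 these were 92.8 and 36.8, and the members' share was 55.8%. Their part in the shares was not tested. On X it was 81.1% (172 of 212). Few distal WT peaks on X had H3K4me1 within 1 kb, 2.83% against 26.7% on the autosomes, and 17.0% had mutant H3K27ac against 24.5%. The rule used both measures, so the share on X is a description. The median fold of members was the same on X and autosomes, 5.05. Of the 41 X members with WT H3K4me3, 36 had mutant H3K4me3 (87.8%; 74.5% to 94.7%), against 72.7% on the autosomes. On X the mutant list held 90.7 H3K4me3 peaks per 100 in the WT list. The autosomes had a median of 77.8 and a highest value of 84.4. The part of this ratio in the share on X was not tested.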

How the data were processed

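Peak lists of 8 ChIP-seq libraries from 2 mouse melanoma lines were used as the authors deposited them, 1 list per library. The submitters' processing notes name MACS2, FastQC and MultiQC, without versions, and mm10. Aligner, read filters and depth: not given in the sources used here. Each peak in the deposited H3K27ac, H3K4me1 and H3K27me3 lists has a fold, which is a ratio to its control, as well as −log10 p and q. The deposited H3K4me3 lists give a score, −10 times log10 p, with a smallest value of 50. The deposited summit offset and the rescaled score of the other lists were not used. The mutant H3K27me3 list has the WT library as its control, per its file name.

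Peaks on the 19 autosomes, X and Y were kept. Coordinates are 1-based on mm10. Gene models were 34614 protein-coding and lncRNA genes of RefSeq GRCm38.p6, the same assembly, whose table gives ends without strand. A mark lay over a member at an overlap of at least 1 bp, and distances ran between nearest edges. Summit fragments k and background λ were solved from fold = (k + 1)/(λ + 1) and the Poisson probability of more than k, a form found by trying it on the lists and tested on simulated data. Shares have Wilson 95% intervals and differences Newcombe intervals, which treat peaks as independent and were not adjusted for neighbouring peaks. No test was run, since each line and mark has 1 library. Python 3.11.15, numpy 2.4.6, pandas 2.3.3, scipy 1.17.1 and matplotlib 3.10.9 were used.

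The members and gene lists were chosen with earlier results of these data known. Named genes were Kmt2d, the nearest protein-coding genes (within 100 kb) to the 10 strongest members and to the first 4 with WT H3K4me3, WT H3K27me3 and mutant H3K4me1, the 5 largest groups of members, the 5 genes with most members inside and up to 3 genes per list. Others are named as chosen after their values were seen. Some genes met this rule but are left out. Alternatives varied the distances, gene models, list lengths and thresholds.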

Additional observations from a re-analysis of the deposited data

How the results depend on the processing

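No paired analysis was possible because each line and mark has 1 library. The 6 results (the number of members, WT H3K4me3, mutant H3K4me3 among members with WT H3K4me3, WT H3K27me3, mutant H3K4me1 and gene bodies) were recomputed under 14 alternatives, and the 3 mark shares of all members also with the mark within 1 kb. Of these, leaving out listed starts, the limit of 8 fragments, every RefSeq gene model and leaving out X were chosen after the data were seen, as was the third result. The number of members ran from 3653 to 12718. It was 6615 with H3K27ac lists of equal length, 4310 in the more significant 50% of the WT list and 3653 at 8 or more fragments, since these leave out weak peaks. In the same order the share with WT H3K4me3 was 21.0%, 22.7% and 30.2%. It was 13.9% with gene ends at 2.5 kb, 15.0% without listed starts, 19.8% with protein-coding genes alone, 17.1% with WT H3K4me1 at 5 kb, 23.1% for H3K4me3 within 1 kb, and 23.0% and 16.8% with mutant H3K27ac at 1 bp and 5 kb. The share of these with mutant H3K4me3 stayed between 63.1% and 77.0%: 63.1% with gene ends at 2.5 kb, 66.1% without listed starts, 68.3% and 75.8% with WT H3K4me1 at 1 bp and 5 kb, 69.6% with the more significant 50% of the WT H3K4me1 list and 77.0% with mutant H3K27ac at 1 bp. Mutant H3K4me1 was 1.27% and 0.560% with WT H3K4me1 at 1 bp and 5 kb, 1.67% at 8 or more fragments, 2.55% within 1 kb, 1.07% and 1.1% in the more significant 50% of the WT H3K27ac and H3K4me1 lists, and 1.02% and 0.575% with mutant H3K27ac at 1 bp and 5 kb. WT H3K27me3 was 0.401% within 1 kb. The gene body share was 62.3% with gene ends at 2.5 kb, 62.5% without listed starts, 62.1% in the more significant 50% of the H3K27ac list and 55.9% with protein-coding genes alone. For these shifts the cause was not tested. With every RefSeq gene model there were 10264 members. The Kmt2d member lies within 2.5 kb of a gene end and drops out at that distance. With a median of 7 fragments per member and unknown depth, absence of a peak in a list does not show absence of the mark.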

Other observations

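The 1 Mb bins with the most members were looked up after the values were seen. They were ranked by the number of members and not by the members' share, which was 57% of all distal WT peaks. Chromosome 9 from 41 to 42 Mb, which holds Mir125b-1, Sorl1 and Ubash3b, had 26 members among 48 distal WT peaks, with 50 H3K27ac peaks in the WT and 36 in the mutant line. Chromosome 8 from 34 to 35 Mb, which holds Dusp4 and the telomere enzyme gene Tnks, had 23 members among 24 distal WT peaks. There the lists held 35 WT and 9 mutant H3K27ac peaks and 12 WT and 6 mutant H3K4me3 peaks. Chromosome 10 from 93 to 94 Mb, around the ETS factor gene Elk3, had 23 members among 46 distal WT peaks, with 52 WT and 46 mutant H3K27ac peaks. From 68 to 69 Mb, around Arid5b, there were 21 among 28, with 31 WT and 17 mutant peaks. On chromosome 10 from 120 to 121 Mb, 20 of 38 distal WT peaks were members, in the bin of Hmga2, which encodes an architectural chromatin protein.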
